A study of Homo sapiens with 33 samples.

Results

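The genes described here make the outer layers of stratified squamous epithelium. They are 38 genes, found by symbol among the 56470 rows of a count table, and all 38 symbols were present. They comprise 10 small proline-rich (SPRR) genes, involucrin (IVL) and 2 late cornified envelope (LCE) genes, 6 fused S100 genes (FLG, FLG2, HRNR, RPTN, CRNN and TCHH), 13 S100A genes, and 6 transglutaminases and other cornification genes (TGM1, TGM3, CNFN, CALML5, SBSN and CDSN). On GRCh37, 32 of them lie within 1.65 Mb of chromosome 1, at chr1:151955391-153603836, in the cluster named the epidermal differentiation complex. The other 6 lie elsewhere, TGM1 on chromosome 14, TGM3 on chromosome 20, CNFN and SBSN on chromosome 19, CALML5 on chromosome 10 and CDSN on chromosome 6. The symbols alone chose the genes, and no measured value was used.

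Keratinocytes that leave the basal layer stop dividing and build a cornified envelope beneath the plasma membrane. Involucrin is laid down early as a scaffold, SPRR and LCE proteins reinforce it, and transglutaminases such as TGM1 cross-link these proteins to each other. Filaggrin (FLG) and its relatives bundle keratin filaments and bind the envelope, whereas the S100A genes of the same cluster encode small calcium-binding proteins, many of which are also made in basal and in transformed cells. In cultured keratinocytes, signalling by the epidermal growth factor receptor (EGFR) is known to influence when these genes are expressed.

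RNA from SCC1 and SCC6 (also written UM-SCC-1 and UM-SCC-6 in the labels) and SCC25, established lines of head and neck squamous cell carcinoma (HNSCC), was sequenced in bulk on each day of treatment with cetuximab, an antibody against EGFR, at 100 nM, or with PBS as the untreated control. The 33 libraries comprise PBS on days 0 to 5 and cetuximab on 5 occasions per line. Each line, treatment and day has 1 library, except in cetuximab-treated SCC6. For cetuximab-treated SCC6 the labels give day 2 for 2 libraries, called 2a and 2b here, and day 1 for none, so that their day is not known. Treatment began the day after seeding, and medium with the agent was renewed daily. SCC1 and SCC25 were grown with hydrocortisone at different concentrations, SCC6 with non-essential amino acids and no hydrocortisone stated, so that line and medium cannot be told apart. Within a line, days stood in for replicates, nothing says that the days came from separate cultures, and p-values measure the spread between these libraries. All libraries are of bulk RNA, in which fewer cells of a type and less RNA per cell cannot be told apart.

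Total counts per library were between 28508758 and 80727478. The titles name 5 flow cells (A to E). In SCC25 flow cell A held all PBS libraries and 2 cetuximab libraries (days 1 and 2), and B the remaining cetuximab libraries. In SCC1 B held PBS up to day 4, and C held PBS of day 5 with all 5 cetuximab libraries. In SCC6 C held PBS of days 0 and 1, D the later PBS libraries with cetuximab 2a, 2b and 3, and E cetuximab of days 4 and 5. The squamous labels were checked against 7 epithelial markers, which summed to between 1423 and 14080 CPM in PBS, and all 7 were tested in each line. With cetuximab 5 of the 7 rose in SCC1, 3 in SCC6 and 2 in SCC25, and 1 fell in each, and the part of these in the members' changes was not tested. SCC6 differed from the others in that the basal keratins KRT5 and KRT14 had means of only 2.38 and 3.95 CPM in PBS. Of 7 myeloid markers, PTPRC, LYZ and FCGR3A had means of at most 0.216 CPM in every line and treatment, whereas CD68, CSF1R, CD14 and ITGAM were measured above the filter in at least 1 line. Of these CD68 fell in all 3 lines, and CSF1R rose in SCC1 (from 1.05 to 4.38 CPM, adjusted p = 4.9e-05) and in SCC6 (from 0.44 to 2.09 CPM, adjusted p = 0.0031). Of 4 melanocyte markers, TYR and DCT had means of at most 0.0381 CPM, MLANA of 0.257 to 0.523 CPM and PMEL of 0.652 to 1.71 CPM, and PMEL rose in SCC1 (from 1.14 to 1.71 CPM, adjusted p = 0.0052).

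The SPRR genes gave the largest changes described below. Their promoters are shown first, as the 250 bases before the start of each transcript, for the 4 SPRR genes of SCC6 that fell under cetuximab and have an entry in the RefSeq table used here, with FLG, which rose in SCC6, beside them. Coordinates are on GRCh38.p14 and each sequence reads 5′ to 3′ on the strand of its gene. Capitals mark TGANTCA, with any base as N, a pattern that reads the same on both strands. It is wider than the AP-1 consensus, TGA(C/G)TCA, and contains it.
SPRR1A (chr1:152983831-152984080, + strand): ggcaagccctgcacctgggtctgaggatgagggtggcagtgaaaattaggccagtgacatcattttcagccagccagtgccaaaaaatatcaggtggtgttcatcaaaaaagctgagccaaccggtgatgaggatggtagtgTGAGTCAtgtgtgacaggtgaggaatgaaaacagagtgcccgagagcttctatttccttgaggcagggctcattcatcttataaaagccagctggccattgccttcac
SPRR1B (chr1:153030953-153031202, + strand): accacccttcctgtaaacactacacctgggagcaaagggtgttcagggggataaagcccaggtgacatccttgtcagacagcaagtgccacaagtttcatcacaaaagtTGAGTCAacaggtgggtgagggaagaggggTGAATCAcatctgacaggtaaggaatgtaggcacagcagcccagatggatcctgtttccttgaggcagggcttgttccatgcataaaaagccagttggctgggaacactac
SPRR2A (chr1:153057513-153057762, - strand): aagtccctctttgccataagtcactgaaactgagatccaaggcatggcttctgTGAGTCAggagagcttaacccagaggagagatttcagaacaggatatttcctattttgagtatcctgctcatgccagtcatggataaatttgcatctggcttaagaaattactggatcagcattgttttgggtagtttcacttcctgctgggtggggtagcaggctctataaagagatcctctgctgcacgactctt
SPRR3 (chr1:153001499-153001748, + strand): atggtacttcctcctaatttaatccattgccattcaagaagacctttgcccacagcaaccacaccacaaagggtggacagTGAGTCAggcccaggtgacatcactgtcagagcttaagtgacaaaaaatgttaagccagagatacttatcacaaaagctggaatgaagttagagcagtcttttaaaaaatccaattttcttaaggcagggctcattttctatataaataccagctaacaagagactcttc
FLG (chr1:152325240-152325489, - strand): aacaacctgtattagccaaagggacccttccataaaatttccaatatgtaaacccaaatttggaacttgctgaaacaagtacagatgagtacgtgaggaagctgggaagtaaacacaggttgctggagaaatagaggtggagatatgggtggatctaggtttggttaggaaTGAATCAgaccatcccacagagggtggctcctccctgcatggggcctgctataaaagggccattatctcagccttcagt
The pattern was found in all 4 of these SPRR promoters. Its first base lies at -108 from the start in SPRR1A, at -197 in SPRR2A, at -170 in SPRR3, and at both -141 and -111 in SPRR1B. The SPRR1B match at -111 is TGAATCA, outside the consensus, and the other SPRR matches shown are TGAGTCA. In FLG it begins at -79 and reads TGAATCA, so that FLG does not hold the consensus in this window. Of the 35 members with an entry, 16 (45.7%) hold it in this window, against 2308 of 35116 promoters in the whole table (6.57%). A member was counted if any of its promoters held the pattern, whereas the whole table was counted promoter by promoter. These shares are therefore in unlike units. S100A2, for example, holds it before 1 of its starts but not before another. These 16 are SPRR1A, SPRR1B, SPRR2A, SPRR2F, SPRR2G, SPRR3, IVL, FLG, FLG2, RPTN, CRNN, TCHH, S100A2, S100A3, S100A12 and SBSN. By role, 6 of 8 SPRR genes and 5 of 6 fused S100 genes hold it, but 3 of 13 S100A genes. The fused S100 matches all lie outside the consensus, with TGAATCA in FLG, FLG2, CRNN and TCHH and TGATTCA in RPTN. Those of SPRR2G and S100A12 also read TGAATCA. All these counts are of the wider pattern, and matches to the consensus alone were not counted. A match describes these letters and is not evidence of binding.

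Before treatment is considered, the 3 lines already differed in these genes. Per kb of transcript, S100A11 had the highest PBS level of all members in every line, at 955 CPM per kb in SCC1, 985 in SCC6 and 863 in SCC25, where levels are means of days 1 to 5. S100A10, S100A6, S100A2 and S100A16 took ranks 2 to 5 in SCC1 and SCC25, and in SCC6 S100A14 stood in place of S100A2. The envelope genes were far lower, and the SPRR genes were abundant only in SCC6, where SPRR1B reached 43.7 CPM per kb against 0.16 in SCC1 and 1.36 in SCC25. Of the 38 members, 26 in SCC1, 20 in SCC6 and 26 in SCC25 had a mean below 1 CPM, and 14 were too low for the comparison of cetuximab with PBS over days 1 to 5 in any line (SPRR2B, SPRR2E, SPRR2F, SPRR2G, SPRR4, FLG2, RPTN, CRNN, LCE3D, LCE3E, S100A7, S100A12, TGM3 and CALML5). Of these, SPRR2E in SCC6 and S100A7 in SCC1 passed the filter only in the fit by period.

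**Figure D1:**
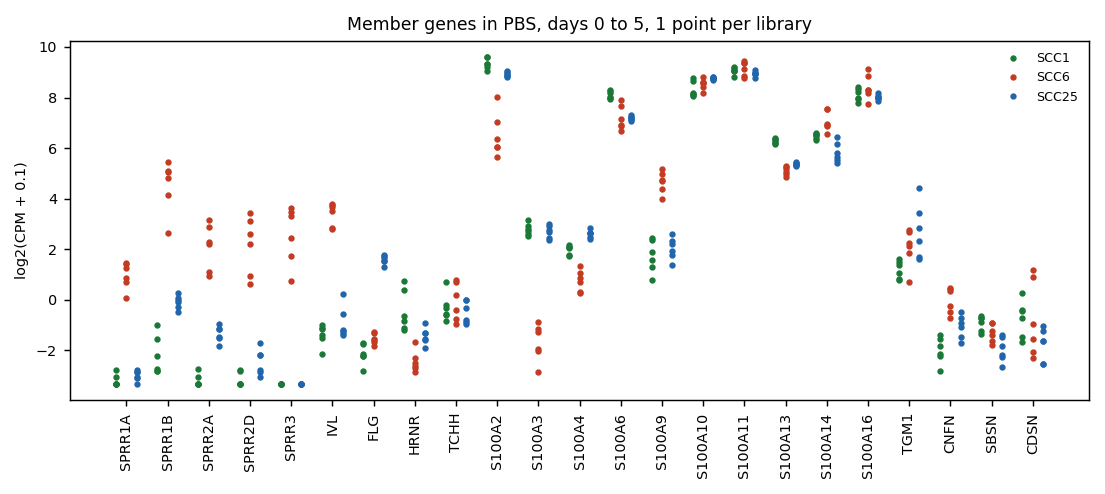
Levels of the 23 members that could be compared between lines in PBS, as log2(CPM + 0.1) on the y axis, 1 point per library of days 0 to 5, coloured by line. The SPRR genes, IVL and S100A9 sit highest in SCC6, S100A2 and S100A3 lowest in SCC6, and FLG highest in SCC25.

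Levels in PBS were compared between lines over the 18 PBS libraries with edgeR's quasi-likelihood test, adjusted over all 19746 genes tested. SCC1 and SCC6 differed in 17 of 23 members (background over all genes 69.1%), SCC6 and SCC25 in 19 (background 72.1%) and SCC1 and SCC25 in 12 (background 69%). The share of members is therefore near the background for the first 2 pairs and below it for the third. All 5 tested SPRR genes were higher in SCC6 than in SCC1 and than in SCC25. Of them, SPRR1A, SPRR2A, SPRR2D and SPRR3 passed the low-count filter only through SCC6. Their part in this count and in those above was therefore favoured by the filter. For SPRR1B the difference from SCC25 was 4.98 ± 0.41 on the log2 scale (SE, adjusted p = 1.2e-09). SPRR3, a gene typical of internal squamous epithelia, had no count in any PBS library of SCC1 or SCC25, so its fitted difference depends on the prior count and is not given. IVL was higher in SCC6 than in SCC25 by 4.47 ± 0.32 (SE, adjusted p = 1.1e-10) on the log2 scale. FLG was lower in SCC6 than in SCC25 by a log2 difference of -3.53 ± 0.21 (SE, adjusted p = 8.2e-12), and lower in SCC1 than in SCC25 by -4.48 ± 0.22 (SE, adjusted p = 4.6e-13). S100A2, which marks basal squamous cells, was lower in SCC6 than in SCC25 by -2.17 ± 0.29 (SE, adjusted p = 1.4e-06), and S100A3 by -4.68 ± 0.27 (SE, adjusted p = 3.7e-12). The order of TGM1 was SCC25, SCC6, SCC1, and the neighbours SCC6 and SCC25 did not differ past the threshold (difference -0.88 ± 0.41, SE, adjusted p = 0.061).

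Under cetuximab the 3 lines moved in different ways. In SCC1, where SPRR genes were close to absent, HRNR, FLG, TGM1, S100A4, S100A10, S100A14 and S100A6 rose, and S100A9, S100A13, S100A3, S100A2 and S100A16 fell. In SCC6 the 5 tested SPRR genes fell by more than 4 on the log2 scale together with S100A9, S100A6, S100A14 and S100A13, while FLG alone rose. In SCC25 SPRR1B fell by 1.25 on the log2 scale, and FLG, S100A16 and S100A2 fell by less than 0.5.

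Cetuximab and PBS were compared on days 1 to 5 in each line, 5 libraries against 5, with the quasi-likelihood test of edgeR, adjusted over all genes tested by the Benjamini-Hochberg method, and members with an adjusted p under 0.05 are called. In SCC1, 12 of 18 tested members were called (background 44.8%), 7 higher (background 22.7%) and 5 lower (background 22.1%). Of the 7 higher, FLG reached the low-count filter through cetuximab, where it was high, which favours a rise. In SCC6, 10 of 20 were called (background 30.1%), 1 higher (background 15.6%) and 9 lower (background 14.6%). There SPRR1A, SPRR1B, SPRR2A, SPRR2D and SPRR3 reached the low-count filter through PBS, where they were high, which favours falls in this count. FLG, the 1 higher, reached it through cetuximab, where it was high, which favours a rise. In SCC25, 4 of 19 were called (background 18.3%), 0 higher (background 8.8%) and 4 lower (background 9.5%). By another tool, DESeq2, SCC25 gave 7 calls, with IVL, S100A10 and S100A11 in addition, and 8 members had an unadjusted p under 0.05 by edgeR. The shares of all genes for these counts are not given here, so they were not set against a background. In the main fits the members' share was above the background in SCC1 and SCC6 and near it in SCC25. The share in SCC6 includes the SPRR genes and FLG, whose calls the filter favoured. Its excess is therefore not read as a result about the members. The share in SCC1 includes FLG, which the filter favoured as well. The median log2 fold change of the tested members was 0.50 in SCC1, -0.69 in SCC6 and -0.12 in SCC25, against 0.021, 0.004 and 0.006 over all genes. The members tested differ between lines, since low counts were filtered in each line, and 15 members were tested in all 3. No member was called in the same direction in all 3 lines, and S100A9 and S100A13 fell in both SCC1 and SCC6, whereas FLG rose in both.

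**Figure D2:**
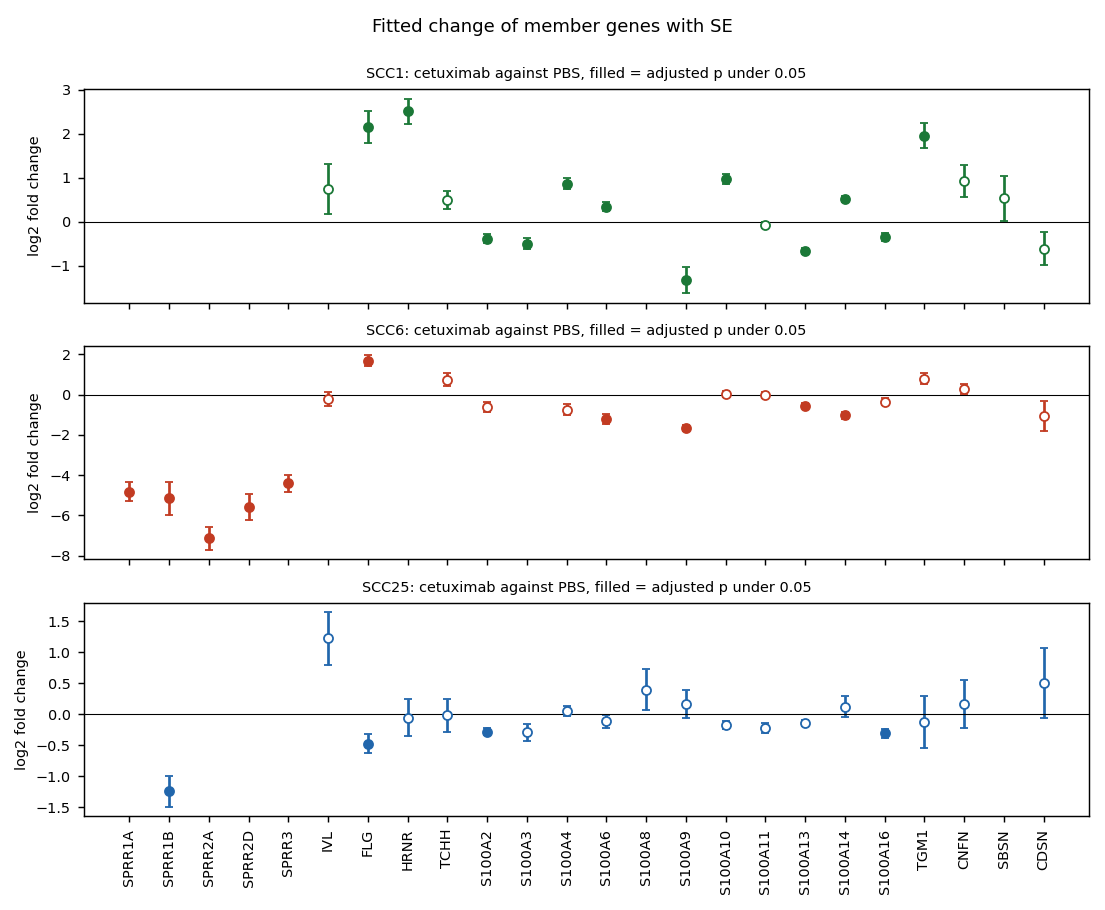
Fitted log2 fold change of cetuximab over PBS on days 1 to 5 (y axis, bars show the SE) for every member tested in at least 1 line, with 1 panel per line and a separate scale for each, filled where the adjusted p was under 0.05. The 5 SPRR genes of SCC6 lie between -4.40 and -7.14, and HRNR in SCC1 reaches 2.51.

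The SPRR genes encode the cross-linked proline-rich precursors of the envelope. SPRR1B (chr1:153003679-153005376 on GRCh37, + strand, 2 exons) is the most abundant of them in SCC6. Its PBS levels were 34.5, 43.9, 33.1, 17.4 and 6.12 CPM on days 1 to 5, and its cetuximab levels were 0.569 (2a), 3.02 (2b), 0.182 (day 3), 0.241 (day 4) and 0.229 CPM (day 5). Every cetuximab library lay below every PBS library, and 2b stood above the other 4. The means were 27.0 ± 15.1 and 0.848 ± 1.22 CPM (SD, n = 5), a log2 fold change of -5.15 ± 0.82 (SE, adjusted p = 0.00082).

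SPRR2A (chr1:153028596-153029988, - strand) gave 4.53, 7.34, 8.91, 4.77 and 2.07 CPM with PBS on days 1 to 5, and 0.0247 (2a), 0.117 (2b), 0.0646, 0.0134 and 0.0143 CPM with cetuximab. The groups were separate on all days, and the gene was close to absent under cetuximab. Its log2 fold change was -7.14 ± 0.57 (SE, adjusted p = 1.1e-05). SPRR2D (chr1:153012208-153014407, - strand) had PBS levels of 4.55, 8.61, 10.6, 6.01 and 1.81 CPM and cetuximab levels of 0.148 (2a), 0.475 (2b), 0.0654, 0.0401 and 0.043 CPM. These did not overlap either, with a log2 fold change of -5.58 ± 0.67 (SE, adjusted p = 0.00013). The counting could split reads among the SPRR2 genes, since only 47.3% of the 31-base words of SPRR2A and 70.6% of those of SPRR2D occur in no other gene, so the single-gene values are uncertain. Summed into 1 row before the fit, the 6 SPRR2 genes fell by 5.99 on the log2 scale (SE 0.638, adjusted p = 6.2e-05), and SPRR1A with SPRR1B fell by 5.11 (SE 0.78, adjusted p = 0.00064).

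SPRR3 (chr1:152974223-152976332, + strand) shares no 31-base word with another gene. Its levels were 3.27, 11.03, 12.3, 9.98 and 5.35 CPM with PBS and 0.346 (2a), 0.566 (2b), 0.494, 0.468 and 0.172 CPM with cetuximab. The highest cetuximab library was below the lowest PBS library, with a log2 fold change of -4.40 ± 0.43 (SE, adjusted p = 3.4e-05). SPRR1A (chr1:152956557-152958290, + strand) gave 1.74, 2.57, 2.67, 2.28 and 1.54 CPM with PBS and 0.0247 (2a), 0.252 (2b), 0.078, 0.0668 and 0.0143 CPM with cetuximab. It was likewise separate, with 2b the highest cetuximab library, and had a log2 fold change of -4.82 ± 0.48 (SE, adjusted p = 4.1e-05). On flow cell D alone, which held PBS of days 2 to 5 and cetuximab 2a, 2b and 3, SPRR1B ran from 6.12 to 43.9 CPM with PBS and from 0.182 to 3.02 CPM with cetuximab, and the other 4 were likewise separate. The falls of all 5 stayed past the threshold when any library was left out, when days were blocked and when the flow cell was a covariate. In PBS the 5 genes were highest on day 2 or 3 and lower again on day 5.

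**Figure D3:**
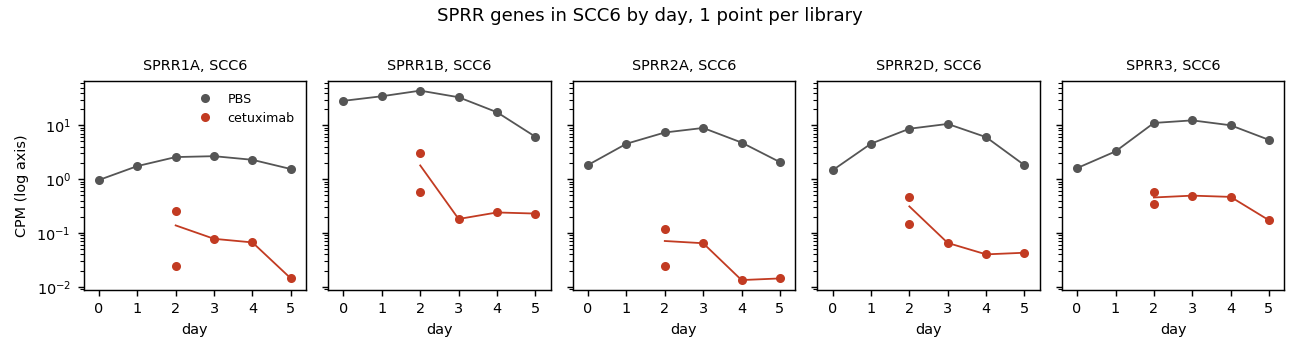
The 5 tested SPRR genes of SCC6 by day, in CPM on a log axis, 1 point per library, grey for PBS, red for cetuximab, with lines through the mean of each day. Both cetuximab libraries labelled day 2 are drawn at day 2. All cetuximab points lie below all PBS points of days 1 to 5 in each panel.

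Of the other SPRR genes in SCC6, SPRR2E, with 48 counts over 5 PBS libraries and 3 over 5 cetuximab libraries, and SPRR2F, with 26 and 0, were too low for the test. In SCC25 SPRR1B gave 0.899, 0.856, 0.617, 0.734 and 1.10 CPM with PBS on days 1 to 5 and 0.256, 0.249, 0.305, 0.473 and 0.495 CPM with cetuximab. All 5 cetuximab libraries were below all PBS libraries, and the log2 fold change was -1.25 ± 0.24 (SE, adjusted p = 0.0049). Summed in the same way, the 6 SPRR2 genes of SCC25 fell by 1.42 on the log2 scale (SE 0.327, adjusted p = 0.012). On flow cell A the SPRR1B levels of the cetuximab libraries of days 1 and 2 were likewise below the 5 PBS libraries. In SCC1 SPRR1B was too low for the test, with PBS levels of 0.0509, 0.247, 0.042, 0.113 and 0.043 CPM and cetuximab levels of 0.0908, 0.0225, 0.125, 0.221 and 0.53 CPM. The 2 groups overlapped.

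An interaction of line and treatment, fitted over the 30 libraries of days 1 to 5, tested whether the change differed between lines. It did for 15 of 24 members (background 26.1%). SPRR1A, SPRR2A, SPRR2D and SPRR3 passed the filter there through SCC6, where they were high with PBS. This favours a fall in SCC6 in the counts and in the SPRR2A difference given here. SCC1 and SCC6 differed in 9 (background 19.3%), in each of which the change was more positive in SCC1. SCC6 and SCC25 differed in 12 (background 17.5%), 10 of them more negative in SCC6, and SCC1 and SCC25 in 7 (background 8.52%). SPRR1B fell more in SCC6 than in SCC25, by -3.91 ± 0.88 on the log2 scale (SE, adjusted p = 0.0022), and so did SPRR2A, by -5.83 ± 0.77 (SE, adjusted p = 7.4e-06). Adjusted for the flow cell, these counts were 5 for SCC6 against SCC25 and 4 for SCC1 against SCC25. The share of all genes under that setting is not given here.

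Involucrin (IVL, chr1:152881022-152884362, + strand) did not move with the SPRR genes. In SCC6 it gave 12.7, 11.3, 13.6, 13.5 and 7.07 CPM with PBS on days 1 to 5, and 6.26 (2a), 4.09 (2b), 8.26, 15.1 and 16.5 CPM with cetuximab. The cetuximab libraries were lower up to day 3 and higher on days 4 and 5, and the groups overlapped. The log2 fold change over all days was -0.23 ± 0.34 (SE, adjusted p = 0.65). A fit by period gave -1.05 ± 0.27 for days 1 to 3 and 0.61 ± 0.32 for days 4 and 5 (SE), a difference of 1.65 ± 0.42 that did not pass over all genes (adjusted p = 0.093). In SCC1 IVL was lower with cetuximab on days 1 and 2 and higher from day 3, with cetuximab levels of 0.136, 0.135, 0.276, 0.588 and 1.23 CPM against 0.407, 0.359, 0.126, 0.248 and 0.279 CPM with PBS. The difference between periods there was 2.49 ± 0.76 (SE, adjusted p = 0.66).

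In SCC25 IVL was higher with cetuximab on every day, at 0.853, 0.663, 0.814, 1.61 and 2.26 CPM against 0.325, 0.343, 0.308, 0.573 and 1.08 CPM with PBS. The groups overlapped through the PBS library of day 5, and the log2 fold change of 1.22 ± 0.42 missed the threshold (SE, adjusted p = 0.064). With the day as a block it was 1.24 ± 0.16 (SE, adjusted p = 0.0012). The block raised the number of members called in SCC25 from 4 to 8, adding IVL, S100A3, S100A10 and S100A11. The share of all genes called with the block is not given here.

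Across all members, the change did not differ between days 1 to 3 and days 4 and 5 past the threshold in any line by edgeR, with 0 of 20 members in SCC1, 0 of 24 in SCC6 and 0 of 20 in SCC25. The background was likewise 0% in each line, and DESeq2 called 2 members in SCC6, IVL and TGM1, and none in the other lines. At an unadjusted p under 0.05 there were 3, 5 and 2 members by edgeR. The shares of all genes for these and for the DESeq2 calls are not given here. These counts are therefore not read as a result about the members. The 2 LCE genes, which encode late envelope proteins, had at most 0.506 CPM in any library and were not tested.

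The fused S100 genes encode large repeat proteins that bundle keratin and join the envelope. HRNR (hornerin, chr1:152184552-152196669, - strand, 3 exons) gave the largest rise in SCC1. Its PBS levels were 1.22, 0.359, 0.462, 0.338 and 0.537 CPM on days 1 to 5, and its cetuximab levels 3.31, 3.35, 2.79, 3.51 and 3.40 CPM. All cetuximab libraries were above all PBS libraries, with the PBS library of day 1 above the other 4. The mean went from 0.583 ± 0.365 to 3.27 ± 0.28 CPM (SD, n = 5), a log2 fold change of 2.51 ± 0.29 (SE, adjusted p = 2.4e-05). On flow cell C, the PBS library of day 5 had 0.537 CPM, below all 5 cetuximab libraries on the same flow cell. In SCC25 HRNR had 0.286 ± 0.101 CPM with PBS and 0.276 ± 0.088 CPM with cetuximab (SD, n = 5, adjusted p = 0.92), and the change in SCC1 was more positive by 2.55 ± 0.44 (SE, adjusted p = 2e-04). In SCC6 HRNR was too low for the fit of that line, with 15 counts over the 5 PBS libraries and 77 over the 5 cetuximab libraries (means 0.101 and 0.288 CPM, overlapping). In the fit over all lines its change in SCC6 was more positive than in SCC25 by 1.59 ± 0.56 (SE, adjusted p = 0.046), and SCC1 minus SCC6 was 0.96 ± 0.57 (SE, adjusted p = 0.26).

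FLG (filaggrin, chr1:152274641-152297715, - strand) rose in SCC1 from 0.134 ± 0.066 to 0.582 ± 0.225 CPM (SD, n = 5), with a log2 fold change of 2.14 ± 0.37 (SE, adjusted p = 0.00045), and every cetuximab library was above every PBS library. In SCC6 it rose from 0.237 ± 0.047 to 0.762 ± 0.219 CPM (SD, n = 5), with a log2 fold change of 1.68 ± 0.27 (SE, adjusted p = 0.00086) and no overlap. These levels are low for a transcript of 12793 bases. In SCC25, where FLG was highest, its PBS levels were 3.34, 3.26, 2.77, 2.81 and 2.37 CPM on days 1 to 5, and its cetuximab levels 2.73, 1.83, 2.30, 1.68 and 2.01 CPM. The groups overlapped through the cetuximab library of day 1 and the PBS library of day 5. The log2 fold change of -0.47 ± 0.15 was at the threshold (SE, adjusted p = 0.047), and the call was lost when any 1 of 7 single libraries was left out, PBS of days 1 to 4 and cetuximab of days 2, 4 and 5 among them. The change of FLG was more positive than in SCC25 both in SCC1 (2.60 ± 0.37, SE, adjusted p = 1.5e-05) and in SCC6 (2.17 ± 0.35, SE, adjusted p = 6.6e-05). FLG-AS1, annotated antisense across this region, had 0.111 to 0.258 CPM with PBS on days 1 to 5 in SCC1 and 0.36 to 0.499 CPM with cetuximab. The library kit marks strand, but no source used here states the strand setting of the counting, so reads of FLG or HRNR and of FLG-AS1 may not be told apart.

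TCHH (trichohyalin) had 0.613 ± 0.119 and 0.855 ± 0.161 CPM in SCC1 (SD, n = 5), with a log2 fold change of 0.50 ± 0.20 (SE, adjusted p = 0.059), and 1.08 ± 0.51 and 1.83 ± 0.57 CPM in SCC6 (adjusted p = 0.11). With the day as a block TCHH passed in both, at adjusted p = 0.039 and 0.024, taking 2a as day 1 in SCC6. The other fused S100 genes, FLG2, RPTN and CRNN, were not tested in any line.

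The cornification enzymes showed their clearest change in TGM1 (chr14:24718320-24733638, - strand, 15 exons), the transglutaminase of the plasma membrane that cross-links the envelope. In SCC1 its PBS levels were 2.72, 1.98, 1.64, 1.67 and 2.94 CPM and its cetuximab levels 5.43, 4.63, 8.38, 10.6 and 13.2 CPM on days 1 to 5. The groups were separate, and the highest cetuximab values were those of days 4 and 5. The log2 fold change was 1.96 ± 0.29 (SE, adjusted p = 0.00016). Adjusted for the flow cell, which leaves 1 PBS library beside the cetuximab libraries, it was 1.53 and no longer past the threshold.

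In SCC6 TGM1 fell with the days in PBS, from 6.63 to 4.30, 4.71, 3.50 and 1.54 CPM on days 1 to 5, a slope of -0.35 ± 0.08 per day over days 0 to 5 on the log2 scale (SE, adjusted p = 0.0077). With cetuximab it was 7.05 (2a), 6.11 (2b), 7.33, 7.93 and 8.02 CPM. The groups overlapped through 2b and the PBS library of day 1, and the log2 fold change of 0.80 ± 0.29 just missed the threshold (SE, adjusted p = 0.055). In SCC25 the PBS levels climbed from 3.12 to 4.86, 7.05, 10.8 and 21.3 CPM, a slope of 0.60 ± 0.04 per day (SE, adjusted p = 1e-06). The cetuximab levels of 5.48, 8.41, 8.17, 10.4 and 11.1 CPM were higher than PBS on days 1 to 3 and lower on days 4 and 5. Over all days there was no called difference (log2 fold change -0.12 ± 0.42, SE, adjusted p = 0.87, and 0.12 with the day as a block), and the change of TGM1 was more positive in SCC1 by 2.06 ± 0.53 (SE, adjusted p = 0.01).

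**Figure D4:**
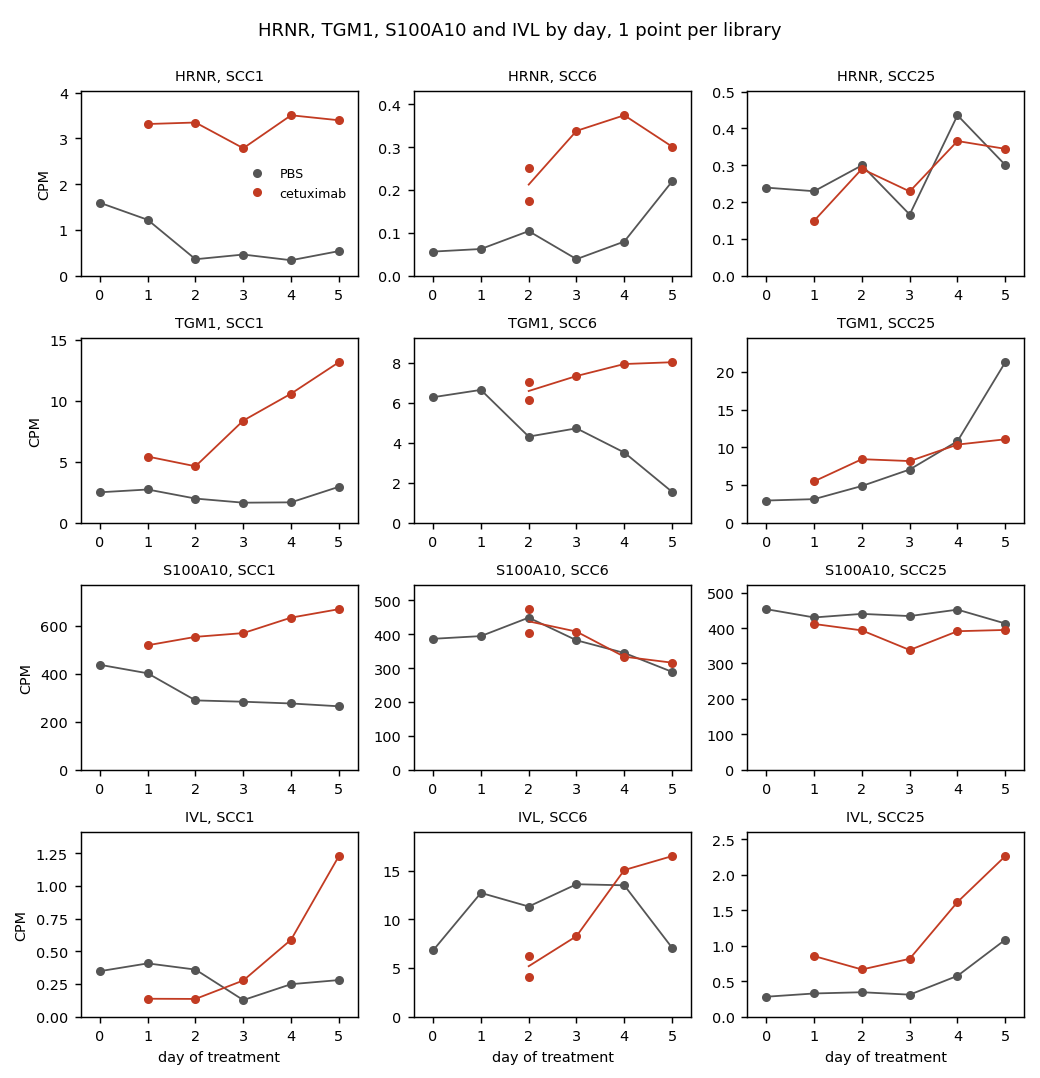
HRNR, TGM1, S100A10 and IVL (rows) in the 3 lines (columns) by day, in CPM from 0, each panel with its own scale, 1 point per library, grey for PBS, red for cetuximab, with lines through the mean of each day. HRNR, TGM1 and S100A10 are separate between treatments in SCC1, while TGM1 in SCC25 PBS climbs to 21.3 CPM on day 5.

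Of the remaining cornification genes none was called under cetuximab. CDSN (corneodesmosin) and CNFN (cornifelin) were tested in all 3 lines. CNFN had a log2 fold change of 0.92 ± 0.36 in SCC1 (SE, adjusted p = 0.057). SBSN (suprabasin) was tested in SCC1, with 0.421 ± 0.104 and 0.608 ± 0.575 CPM (SD, n = 5, adjusted p = 0.43). In SCC6 SBSN had 52 counts over the 5 PBS libraries and 5 over the 5 cetuximab libraries, and its change was more positive in SCC1 than in SCC6 by 4.46 ± 0.79 (SE, adjusted p = 0.00012). TGM3 could not be read as a gene of its own, since 5.22% of its 31-base words are unique and the rest occur in another annotated gene.

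Among the S100A genes, in SCC1 4 of 10 tested rose (background 22.7%), 5 fell (background 22.1%) and 1 was not called. In SCC6, 4 of 9 fell (background 14.6%), and in SCC25, 2 of 11 fell (background 9.5%). S100A10 (chr1:151955391-151966335, - strand), the partner of annexin A2 at the plasma membrane, had PBS levels of 401, 288, 283, 275 and 264 CPM in SCC1 on days 1 to 5 and cetuximab levels of 518, 553, 569, 633 and 668 CPM. The groups were separate, with the PBS library of day 1 above the other 4. The log2 fold change was 0.97 ± 0.12 (SE, adjusted p = 3.2e-05). In PBS the gene fell with the days in SCC1, with a slope of -0.16 ± 0.03 per day on the log2 scale (SE, adjusted p = 0.035), a call that was lost when the PBS library of day 1, 3 or 4 was left out. The change was more positive than those in SCC6 (0.91 ± 0.16, SE, adjusted p = 0.00013) and SCC25 (1.13 ± 0.16, SE, adjusted p = 1.6e-05). S100A10 had 372 ± 60 and 387 ± 64 CPM in SCC6 (SD, n = 5, adjusted p = 0.86), and in SCC25 434 ± 14 and 386 ± 28 CPM (SD, n = 5, adjusted p = 0.053).

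S100A14 (chr1:153586731-153589462, - strand), which is expressed in many epithelia, rose in SCC1 and fell in SCC6. In SCC1 it gave 95.7, 92.6, 90.6, 80.5 and 95.3 CPM with PBS and 122, 138, 122, 125 and 138 CPM with cetuximab, which did not overlap (log2 fold change 0.51 ± 0.06, SE, adjusted p = 4.2e-05). In SCC6 it gave 189, 125, 116, 121 and 94.8 CPM with PBS and 60.0 (2a), 71.0 (2b), 54.2, 70.6 and 65.9 CPM with cetuximab, again without overlap (log2 fold change -1.03 ± 0.17, SE, adjusted p = 0.00093). SCC1 minus SCC6 was 1.51 ± 0.22 (SE, adjusted p = 6e-06). S100A6 (calcyclin, chr1:153507075-153508720, - strand) did the same. In SCC1 it had 244, 252, 309, 315 and 290 CPM with PBS and 300, 335, 346, 397 and 397 CPM with cetuximab, with overlap (log2 fold change 0.34 ± 0.09, SE, adjusted p = 0.009), and in SCC6 203, 141, 121, 118 and 102 CPM against 66.8 (2a), 94.8 (2b), 49.2, 51.0 and 36.1 CPM without overlap (log2 fold change -1.22 ± 0.26, SE, adjusted p = 0.0041). In SCC25 neither was called, with adjusted p = 0.67 and 0.46.

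S100A9 (chr1:153330330-153333499, + strand), a subunit of calprotectin that stressed keratinocytes also make, fell in SCC1 and SCC6. In SCC6 its PBS levels climbed through 21.0, 25.8, 26.6, 31.4 and 36.2 CPM, whereas its cetuximab levels were 10.9 (2a), 9.13 (2b), 8.83, 9.58 and 6.73 CPM. The groups were separate, with a log2 fold change of -1.66 ± 0.17 (SE, adjusted p = 4.2e-05). In SCC1 the PBS levels were 1.63, 2.38, 3.66, 5.07 and 5.37 CPM and the cetuximab levels 1.18, 1.24, 1.56, 1.47 and 1.71 CPM, which overlapped through the PBS library of day 1 (log2 fold change -1.33 ± 0.29, SE, adjusted p = 0.0024). In SCC25 they were 2.52, 3.30, 3.68, 4.47 and 5.95 CPM with PBS and 2.92, 4.39, 4.22, 5.74 and 5.23 CPM with cetuximab, with no called change (adjusted p = 0.65). The change was more negative than in SCC25 by -1.82 ± 0.34 in SCC6 (SE, adjusted p = 0.00036) and by -1.52 ± 0.36 in SCC1 (SE, adjusted p = 0.0057).

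S100A8, the other subunit of calprotectin, was measured above the filter only in SCC25. There it gave 0.191, 0.450, 0.261, 0.688 and 0.622 CPM with PBS on days 1 to 5, and 0.554, 0.415, 0.509, 0.882 and 0.560 CPM with cetuximab. The groups overlapped (adjusted p = 0.44), and the level was far below that of S100A9, at 1.08 against 6.96 CPM per kb in PBS. Both are also made by myeloid cells. The summed level of the 7 myeloid markers ran from 17.1 to 19.6 CPM with PBS and from 5.53 to 8.27 CPM with cetuximab in SCC6, of which CD68, a lysosomal protein gene, had means of 17.2 and 4.71 CPM and CSF1R of 0.44 and 2.09 CPM. PTPRC and LYZ had means of at most 0.0731 CPM in SCC6, and FCGR3A was at 0 in both groups there. In SCC1 the sum ran from 20.1 to 55.0 CPM with PBS and from 12.3 to 24.9 CPM with cetuximab, with means of 34.8 and 7.77 CPM for CD68, 1.05 and 4.38 CPM for CSF1R, and 3.08 and 4.11 CPM for CD14. The part of these in the change of S100A9 was not tested.

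**Figure D5:**
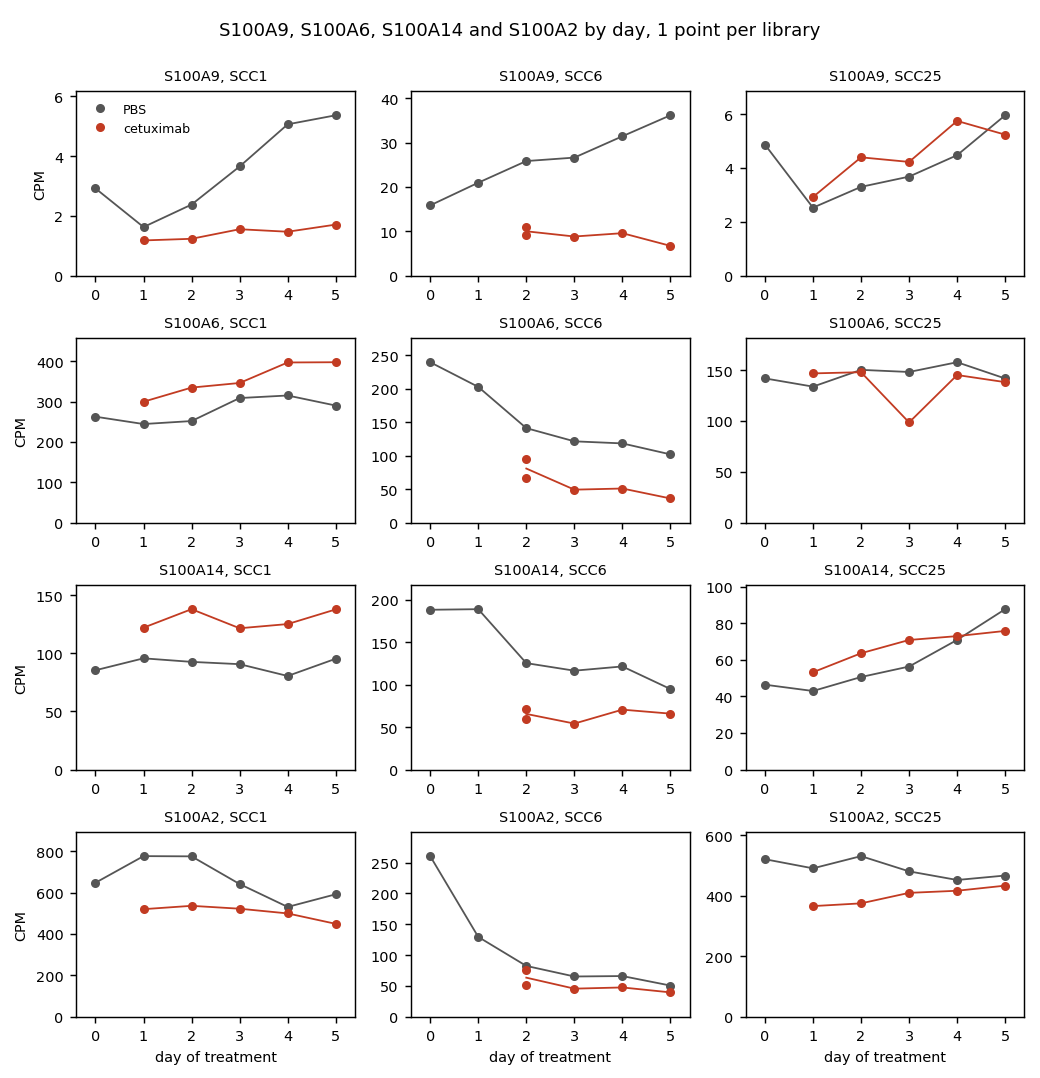
S100A9, S100A6, S100A14 and S100A2 (rows) in the 3 lines (columns) by day, in CPM from 0, each panel with its own scale, 1 point per library, grey for PBS, red for cetuximab, with lines through the mean of each day. The means of S100A6 and S100A14 are above PBS in SCC1 and below it in SCC6, and S100A9 in SCC6 climbs to 36.2 CPM with PBS while no cetuximab library exceeds 10.9 CPM.

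S100A4 (chr1:153516089-153522612, - strand), a gene often expressed in motile and mesenchymal cells, rose in SCC1. Its levels were 4.09, 3.23, 3.36, 4.12 and 4.45 CPM with PBS and 5.93, 6.13, 7.45, 7.01 and 8.09 CPM with cetuximab, with no overlap (log2 fold change 0.86 ± 0.13, SE, adjusted p = 0.00015). In SCC6 it had 1.67 ± 0.56 and 1.01 ± 0.32 CPM (SD, n = 5, adjusted p = 0.068), and its change was more positive in SCC1 by 1.58 ± 0.26 (SE, adjusted p = 4.8e-05). Of 7 fibroblast markers, those tested and called also rose with cetuximab, 4 of 4 in SCC1, 2 of 2 in SCC6 and 4 of 7 in SCC25. Their sum ran from 21.0 to 32.8 CPM with PBS and from 50.1 to 146 CPM with cetuximab in SCC1, from 2.93 to 5.05 and from 9.02 to 115 CPM in SCC6, and from 145 to 195 and from 252 to 406 CPM in SCC25. The collagen gene COL3A1, a defining fibroblast marker, had means of 0.00449 and 0.0913 CPM with PBS and cetuximab in SCC1, 0.0314 and 5.38 CPM in SCC6, and 15.4 and 47.6 CPM in SCC25. Their part in the change of S100A4 was not tested. The transcript of S100A3 lies within the span of S100A4 on the same strand, and it moved the other way in SCC1, from 6.92, 5.95, 6.53, 8.89 and 7.54 CPM to 4.99, 5.10, 5.29, 5.59 and 4.12 CPM without overlap (log2 fold change -0.50 ± 0.12, SE, adjusted p = 0.0045).

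S100A13 (chr1:153591263-153603836, - strand) was lower with cetuximab in every library of SCC1 and SCC6. In SCC1 it gave 72.8, 81.5, 84.8, 80.5 and 75.7 CPM with PBS and 56.9, 51.7, 47.3, 47.2 and 45.3 CPM with cetuximab (log2 fold change -0.66 ± 0.07, SE, adjusted p = 9.7e-06). In SCC6 it gave 37.7, 33.3, 31.8, 35.6 and 28.9 CPM against 23.1 (2a), 27.1 (2b), 23.5, 22.3 and 19.7 CPM (log2 fold change -0.55 ± 0.11, SE, adjusted p = 0.0036). In SCC25 the log2 fold change was -0.14 ± 0.05 (SE, adjusted p = 0.081) with no overlap, and the change in SCC1 was more negative than this by -0.54 ± 0.11 (SE, adjusted p = 0.0013). Of its 31-base words 79% are unique and another annotated gene shares the rest, so that the level is uncertain.

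S100A2 fell in SCC1 and SCC25. In SCC1 it gave 777, 776, 642, 531 and 592 CPM with PBS and 520, 536, 522, 499 and 449 CPM with cetuximab, with overlap through the PBS library of day 4 (log2 fold change -0.39 ± 0.10, SE, adjusted p = 0.0085). In SCC25 it gave 490, 531, 480, 452 and 466 CPM and 365, 374, 409, 416 and 433 CPM, without overlap (log2 fold change -0.28 ± 0.06, SE, adjusted p = 0.008). In SCC6 it gave 129, 82.3, 65.1, 65.8 and 50.3 CPM with PBS and 51.0 (2a), 75.4 (2b), 45.3, 47.3 and 39.3 CPM with cetuximab, and the log2 fold change of -0.63 ± 0.25 missed the threshold (SE, adjusted p = 0.076), but passed with the day as a block and 2a as day 1 (-0.58 ± 0.17, SE, adjusted p = 0.04). S100A16 gave 248, 323, 343, 296 and 254 CPM with PBS and 204, 227, 223, 232 and 256 CPM with cetuximab in SCC1, with overlap (log2 fold change -0.35 ± 0.09, SE, adjusted p = 0.0077). In SCC25 it gave 256, 288, 252, 258 and 265 CPM and 215, 225, 175, 227 and 226 CPM, without overlap (log2 fold change -0.31 ± 0.07, SE, adjusted p = 0.014). Adjusted for the flow cell, the SCC1 calls of S100A2, S100A3, S100A6 and S100A16 and the SCC25 call of S100A16 were lost. S100A11, the most abundant member, had log2 fold changes of -0.08 ± 0.08, -0.02 ± 0.13 and -0.22 ± 0.08 in SCC1, SCC6 and SCC25 (SE, adjusted p = 0.41, 0.94 and 0.061).

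Without drug, the members also moved with the day of culture. The slope over the 6 PBS libraries of days 0 to 5 was called for 11 of 18 members in SCC6, 3 upward (background 16.5%) and 8 downward (background 21.9%). In SCC25 3 of 15 were called, all upward (background 8.7% upward, 4.72% downward), and in SCC1 1 of 14, S100A10, downward (background 2.15% upward, 1.07% downward). In SCC6 S100A2 went from 261 CPM on day 0 to 50.3 CPM on day 5, a slope of -0.45 ± 0.06 per day on the log2 scale (SE, adjusted p = 0.00094), and S100A16 from 562 to 213 CPM (-0.27 ± 0.03, SE, adjusted p = 0.00086). S100A6, S100A10, S100A11, S100A14 and TGM1 also fell there, while S100A9, TCHH and CNFN rose. The slope of SPRR1B in SCC6 was downward and at the threshold (-0.39 ± 0.14 per day, SE, adjusted p = 0.05). Its level was not linear, at 28.4 CPM on day 0, 43.9 CPM on day 2 and 6.12 CPM on day 5. In SCC25 the risers were TGM1, IVL and S100A14, which went from 46.4 to 87.7 CPM (0.20 ± 0.03 per day, SE, adjusted p = 0.00015). S100A14 thus fell with the days in SCC6 (-0.21 ± 0.04 per day, SE, adjusted p = 0.0029) and rose in SCC25. The difference between those slopes was not tested.

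The other genes of the pathway were read from lists. Of 31 other genes of the complex found in the table, 1 was tested in SCC1 and SCC25 and 3 in SCC6. In SCC6 CRCT1 fell (from 2.41 to 0.159 CPM, log2 fold change -4.03 ± 0.59, SE, adjusted p = 0.00048) and TCHHL1 rose (from 0.189 to 1.52 CPM, log2 fold change 2.98 ± 0.49, SE, adjusted p = 0.001). Both lie in the same cluster. Of 30 other cornified envelope and barrier genes, 11 rose and 4 fell of 22 tested in SCC1 (background of calls 44.8%), 3 rose and 7 fell of 20 in SCC6 (30.1%), and 4 rose and 1 fell of 26 in SCC25 (18.3%), where the share of calls was near the background. Their median log2 fold changes were 0.72, -0.18 and 0.26. In SCC1 KRT13, a keratin of suprabasal cells in internal squamous epithelia, rose from 3.40 to 166 CPM (log2 fold change 5.63 ± 0.60, SE, adjusted p = 1.4e-05), and PPL, which encodes the envelope protein periplakin, from 45.7 to 106 CPM (1.23 ± 0.13, SE, adjusted p = 1.5e-05). ALOXE3, a lipoxygenase of the lipid barrier, fell in all 3 lines, by log2 fold changes of -1.51, -1.13 and -1.07 in SCC1, SCC6 and SCC25 (adjusted p = 2.2e-05, 0.0013 and 0.0022).

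Of 26 listed regulators of terminal differentiation, 25 were in the table, and 10 rose and 4 fell of 23 tested in SCC1 (background of calls 44.8%), 5 rose and 8 fell of 24 in SCC6 (30.1%), and 4 rose and 1 fell of 24 in SCC25 (18.3%), again near the background. FOSL1, an AP-1 subunit, fell in all 3 lines, from 192 to 29.7 CPM in SCC1, from 173 to 45.0 CPM in SCC6 and from 286 to 133 CPM in SCC25, with log2 fold changes of -2.68, -1.96 and -1.11 (adjusted p = 7.8e-07, 9.7e-06 and 0.00015). FOSL2, another AP-1 subunit, rose in all 3 (1.29, 0.79 and 0.33, adjusted p = 6.3e-06, 0.0041 and 0.017). The repressor PRDM1 fell in SCC1 (-2.30 ± 0.19, SE, adjusted p = 2.5e-06) and SCC6 (-3.10 ± 0.37, SE, adjusted p = 0.00013), and EHF, an ETS factor of epithelia, in the same lines (-1.38 ± 0.19 and -0.97 ± 0.12, SE, adjusted p = 8.8e-05 and 0.00019). CEBPA rose in SCC1 from 0.195 to 1.73 CPM (log2 fold change 3.19 ± 0.27, SE, adjusted p = 2.9e-06). GRHL2 rose in all 3 lines, by 0.80, 0.55 and 0.21 (adjusted p = 1e-05, 0.0041 and 0.027). The part of these regulators in the changes of the members was not tested.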

How the data were processed

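Bulk poly(A) RNA was sequenced with a stranded kit in 33 libraries. The authors deposited 1 table of estimated counts per gene, made with Salmon 0.8.2 on hg19/GRCh37 according to the submitters' processing notes and summed over transcripts with tximport according to the methods of the study. No source used here names the transcript annotation or the strand setting. Of the values above 0, 29.2% are whole numbers, and all were rounded before testing. Groups, days and flow cells were taken from the sample labels. Total counts per library of 28508758 to 80727478 set the precision, and low members were tested only where edgeR's filterByExpr retained them.

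CPM values, counts scaled to library size, were computed with TMM factors, and genes were tested with edgeR 4.0.16 in R 4.3.3 (glmQLFit and glmQLFTest, Benjamini-Hochberg over all genes tested, threshold 0.05). Separate fits compared cetuximab with PBS in each line over days 1 to 5, the change between lines, the change between days 1 to 3 and days 4 and 5, PBS levels between lines, and the slope with day in PBS. These comparisons share PBS libraries. Same-day PBS and cetuximab libraries deviated together from their group means in SCC1 (Pearson r of 0.11 to 0.39 over 9926 genes) and SCC25 (0.22 to 0.59). In SCC6 r was 0.58, -0.18 and 0 on days 3, 4 and 5. The same day was not always the closest. In SCC1 cetuximab of days 3 and 4 was closer to PBS of day 5 (0.22 and 0.35, against 0.17 for both), and that of day 5 to PBS of day 4 (0.13 against 0.11). In SCC25 cetuximab of day 1 was closer to PBS of day 2 (0.64 against 0.22). For the other days of SCC1 and SCC25 it was the closest. The day is therefore only a partial pairing.

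Alternatives were DESeq2 1.42.0, its size factors, total counts alone, no filter, a minimum absolute log2 fold change of 1, day 0 added or left out, the day as a block, the flow cell as a covariate, summed paralogs, and each library left out. The values of each library are given for up to 10 members per line with the largest absolute log2 fold change (called, mean log2 CPM not below 0), for any called in 1 direction in all lines (none was), and by role for IVL, TGM1, SPRR1B, S100A8, S100A9 and S100A2. S100A6 in SCC1 was added after its values were seen. Of the lists of other genes, those named are among the 6 with the smallest adjusted p in any line. The members and all lists were chosen with earlier results of these data known. Gene positions are from GENCODE lifted to GRCh37, promoters from RefSeq on GRCh38.p14, with an entry for 35 of 38 members, and no protein sequence was used here.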

Additional observations from a re-analysis of the deposited data

Results flagged for a closer look

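Of 114 groups of 5 libraries, 1 for each line, treatment and member considered, 12 held a library that stood apart by Dixon's criterion. By it, the gap of that library to its neighbour was large against the range of the group. The 5% rate of the criterion is for like replicates. These groups are of different days and share libraries, so the 12 cannot be compared with that rate. In cetuximab-treated SCC6, library 2b, whose day is not known, stood above the other 4 for SPRR1B (3.02 CPM, others 0.182 to 0.569), SPRR1A (0.252 CPM, others 0.0143 to 0.078) and SPRR2D (0.475 CPM, others 0.0401 to 0.148). Without 2b the 5 SPRR genes of SCC6 were still called. In cetuximab-treated SCC25, library 3 stood below the other 4 for S100A10 (338.0 CPM, others 391 to 412), S100A16 (175.0 CPM, others 215 to 227) and S100A6 (98.6 CPM, others 138 to 148). In SCC1, the PBS library of day 1 stood above the others for S100A10 (401 CPM, others 264 to 288) and HRNR (1.22 CPM, others 0.338 to 0.537), and HRNR in the cetuximab library of day 3 stood below (2.79 CPM, others 3.31 to 3.51). CDSN stood apart in the SCC6 PBS library of day 1 (2.20 CPM, others 0.103 to 0.42) and in the SCC25 cetuximab library of day 2 (0.0 CPM, others 0.422 to 0.462), and S100A11 in the SCC25 PBS library of day 5 (442.0 CPM, others 486 to 504).

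The change with cetuximab differed between lines for 15 members by the joint test over lines, edgeR with Benjamini-Hochberg adjustment. The pair that differed most among those called was SCC1 against SCC6 for SPRR1A (difference of log2 fold changes 5.97), SPRR1B (6.12), SPRR2D (7.19), S100A4 (1.58), S100A6 (1.54), S100A8 (3.64), S100A14 (1.51) and SBSN (4.46). It was SCC1 against SCC25 for FLG (2.60), HRNR (2.55), S100A10 (1.13), S100A13 (-0.54) and TGM1 (2.06), and SCC6 against SCC25 for SPRR2A (-5.83) and S100A9 (-1.82). SPRR1A, SPRR2D and S100A8 had almost no counts in SCC1, so that the fitted differences there depend on the prior count.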

How the results depend on the processing

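Of the 12, 10 and 4 members called in SCC1, SCC6 and SCC25, 199 of 204, 180 of 180 and 57 of 68 values kept their direction and stayed past the threshold under the alternatives other than a minimum fold change and summed paralogs, and none reversed. The 5 lost in SCC1 were all with the flow cell as a covariate, and of the 11 lost in SCC25, 10 were FLG and 1 was S100A16 with the flow cell. With the flow cell as a covariate, 7 members were called in SCC1 and 2 in SCC25, 5 differed between SCC6 and SCC25 and 4 between SCC1 and SCC25. The flow cell is partly confounded with line and treatment. For the counts of members in this paragraph, the share of all genes called under each alternative is not given. The backgrounds printed above belong to the main fits and do not apply to them. A minimum absolute log2 fold change of 1 left 4 calls in SCC1, 1 in SCC25 and 7 between SCC1 and SCC25 in PBS. Without the filter 16 members were called in SCC6, and for the difference between periods 1 in SCC1 and 4 in SCC6. DESeq2 called 7 in SCC25, 2 for the difference between periods in SCC6 and 2 for the slope in SCC1 PBS. Adding day 0 gave 8 calls in SCC25. The replicate block by day gave 8 in SCC25 and moved no other count by over 1.5 times, with 13 in SCC1 and, in SCC6, 12 whether 2a or 2b was taken as day 1. Leaving out 1 library gave 3 to 7 calls in SCC25 (7 without cetuximab day 1), 0 to 1 for the periods in SCC6 (1 without PBS day 1) and 0 to 2 for the slope in SCC1 (0 without day 1, 3 or 4, and 2 without day 5). The cause of these moves was not tested. Depth limits the 14 members too low for the comparison of cetuximab with PBS. With 1 library per line, treatment and day, no day has a replicate, unless 2a and 2b of SCC6 are of the same day.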

Other observations

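Several genes of the squamous programme outside the members changed in SCC1. The basal keratin KRT5 rose from 548 ± 319 to 3259 ± 306 CPM (SD, n = 5, edgeR adjusted p = 4e-05) and its partner KRT14 from 234 ± 84 to 836 ± 123 CPM (adjusted p = 2.3e-05), beside the suprabasal KRT13. LY6D, a surface protein of stratified epithelia, rose from 0.127 to 1.44 CPM (log2 fold change 3.53 ± 0.37, SE, adjusted p = 1.2e-05) and the keratin KRT80 from 10.9 to 23.8 CPM (1.13 ± 0.15, SE, adjusted p = 6e-05), while DMKN, which encodes dermokine, fell (-0.72 ± 0.09, SE, adjusted p = 6.3e-05). In SCC6 KRT5 rose from 2.38 to 12.3 CPM (log2 fold change 2.35 ± 0.18, SE, adjusted p = 9.1e-06), and KRT80 by 0.52 ± 0.15 (SE, adjusted p = 0.022).

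CD68, a lysosomal protein gene, fell with cetuximab in all 3 lines, from 34.8 to 7.77 CPM in SCC1, from 17.2 to 4.71 CPM in SCC6 and from 199 to 161 CPM in SCC25, with log2 fold changes of -2.15, -1.89 and -0.32 (edgeR adjusted p = 9.9e-06, 2.9e-05 and 0.021).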
